A study of Mus musculus with 3 samples.

Results

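The cells described here are 270 endothelial cells that remained in 3 mouse pancreatic tumours after sorting against CD31, the surface protein encoded by Pecam1. They were chosen by their own transcripts, counted as unique molecular identifiers (UMIs). A cell counted as a member when at least 3 of the 6 endothelial genes Pecam1, Cdh5, Kdr, Egfl7, Cldn5 and Emcn had at least 1 UMI, Epcam had 0 UMIs and Col1a1 had at most 2. Cells with fewer than 500 detected genes or more than 20% mitochondrial UMIs had been left out, which kept 19302 of 19576 barcodes. Members numbered 177 in tumour 1, 16 in tumour 2 and 77 in tumour 3.

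The tumours came from KPf/fC mice, in whose shorthand Pf/f stands for floxed Trp53 and C for a Cre recombinase that acts in the pancreatic epithelium. Before sequencing, cells had been sorted as CD45-, CD31- and PDGFRa-, a gate against blood cells, endothelial cells and many fibroblasts, and libraries were made with 10x 3' v2 chemistry. The series sets out to describe gene expression cell by cell in the tumours. All 3 tumours carry the same genotype and the same sort, so the study holds no contrast of treatment or genotype, and the comparisons below are between kinds of cells within each tumour. Whether the tumours come from separate animals is not in the labels, which name neither the Cre promoter nor an age. The p-values rest on the spread between these tumours. For members against all other kept cells it was taken from a trend shared by all genes, not from each gene's own spread.

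Endothelial cells line blood and lymphatic vessels. They receive growth signals such as VEGF and angiopoietins from surrounding cells through receptors on their surface, hold together through junction proteins, and lay down a basement membrane that they share with mural cells, the pericytes and smooth muscle cells wrapped around them. Arterial, venous, capillary and lymphatic endothelium differ in the genes they use, and tip cells lead new vessel sprouts.

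Members made up 3.05% of the kept cells of tumour 1 (95% exact binomial interval 2.62 to 3.53), 0.264% of tumour 2 (0.151 to 0.428) and 1.04% of tumour 3 (0.819 to 1.29), with a mean of 1.45% ± 1.44 (SD, n = 3). The intervals do not overlap, and tumour 1 held the most members and tumour 2 the fewest. These shares follow a sort against CD31, so they do not give the share of endothelial cells in the tissue. Median depth per member was 4815, 4680 and 2938 UMIs in tumours 1, 2 and 3, below the 8694, 9098 and 6196 UMIs of all other kept cells. Summed over members, the tumours gave 1024723, 107537 and 256040 UMIs, so tumour 2 is measured with the least precision. All intervals cover counting error only. In tumour 2, 1 cell with 30515 UMIs supplied 28.4% of the sum. Libraries shared 50, 65 and 57 barcode sequences in pairs, and 6 members carried one of them. Of the members, 16 held over 10000 UMIs. No member was removed as a doublet, and Scrublet, a doublet caller, marked 1 member, in tumour 3.

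The 6 genes of the rule are given as a description, without a test. Pecam1, the transcript of the protein sorted against, stood at 702, 363 and 672 counts per 1000000 UMIs (CPM, from UMIs summed over the cells of a tumour) in the members of tumours 1, 2 and 3, and at 5.15, 0.745 and 2.14 in all other kept cells. At least 1 Pecam1 UMI was seen in 246 of the 270 members. Cdh5, which encodes VE-cadherin of the endothelial junction, stood at 661, 474 and 699 CPM in members. The other 4 genes ranged from 242 CPM for Kdr, the main VEGF receptor, in tumour 2 to 1047 for Emcn, a sialomucin of veins and capillaries, in tumour 3. Members were thus positive for the Pecam1 transcript although the cells had been sorted as negative for its protein, and the surface protein on these cells was not measured in the deposited files used here.

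Few cells lay near the threshold of the rule. Among cells within the Epcam and Col1a1 limits, 2696 showed none of the 6 genes, 369 showed 1, 23 showed 2, 12 showed 3, 66 showed 4, 102 showed 5 and 90 showed all 6. The 23 cells just outside had a median of 2 of 13 further endothelial markers and a median of 15703 UMIs, while the 12 cells just inside had a median of 8 of these markers and 3426 UMIs. A further 105 cells had at least 3 of the 6 genes but failed the limits. Of these, 84 had Epcam, 40 of them with exactly 1 Epcam UMI, and 93.3% had at least 3 of the 13 further markers.

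**Figure D1:**
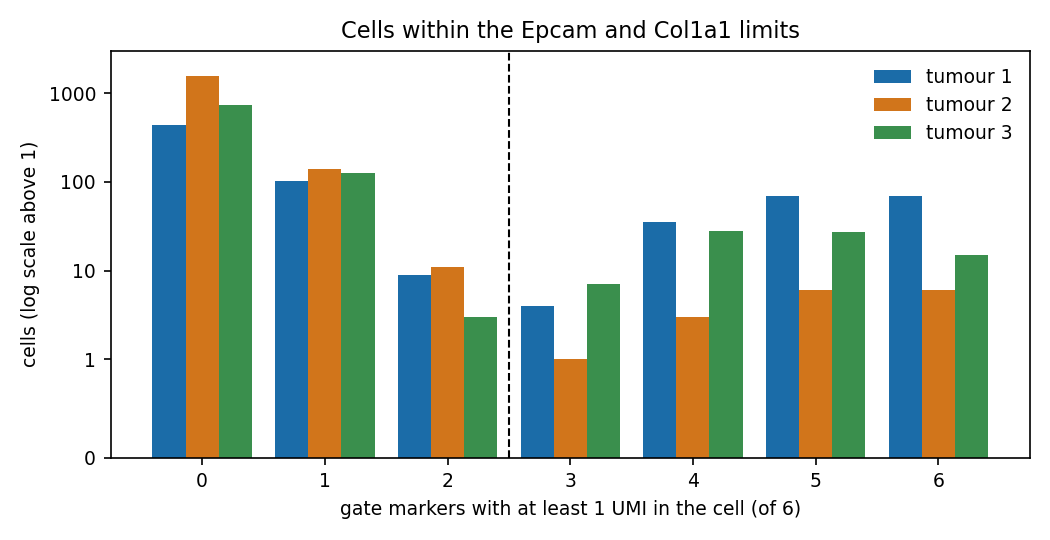
Number of cells (vertical axis, logarithmic above 1) by how many of the 6 gate genes had at least 1 UMI (horizontal axis), for cells within the Epcam and Col1a1 limits, with 1 bar per tumour and the threshold of the rule as a dashed line. Counts fall to 23 cells at 2 genes and 12 at 3 and rise again to 102 at 5.

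Members were then described by 13 endothelial markers outside the rule. The list was chosen with earlier results of these data known, so it is no independent check of the label. All 13 were called higher in members than in all other kept cells (background 9.3% of genes tested) and than in mural cells (9.21%). Groups did not overlap for any of the 13 in either comparison, with members higher. Over all genes tested this held for 11.3% and 14.7%. Mural cells, 712 in all, had at least 3 of the 6 genes Rgs5, Notch3, Cspg4, Myh11, Des and Kcnj8, and 0 UMIs of Epcam and Pdgfra. Tie1, a receptor of the angiopoietin system, stood at 197, 112 and 254 CPM in the members of tumours 1 to 3 and at 1.65, 0.209 and 1.07 in all other kept cells. Each tumour's members were far above its remaining cells. The fitted difference was 7.48 ± 0.33 on the log2 scale (SE, 3 tumours, adjusted p = 1.13e-112, quasi-likelihood test of edgeR, Benjamini-Hochberg adjusted, as for each adjusted p below). Plvap, which forms the diaphragms of fenestrated and caveolar endothelium, stood at 1368, 484 and 1035 CPM in members against 9.62, 6.28 and 3.25 in all other kept cells, a difference of 7.09 ± 0.29 (adjusted p = 1.8e-130). The lowest member value, that of tumour 2, was still far above the highest value of the other cells. After each cell had been thinned to 2000 UMIs, Plvap was seen in 88.1%, 50% and 74.0% of members and in 0.854%, 0.416% and 0.261% of epithelial cells, which should lack it and are deeper. Without thinning the shares were 96.0%, 81.2% and 84.4% of members and 3.25%, 2.62% and 0.735% of epithelial cells, at median depths of 10570, 9232 and 7372 UMIs for the latter.

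Across the 13 markers the median difference from all other kept cells was 5.34 on the log2 scale, from 3.45 ± 0.24 for Ecscr (adjusted p = 6.71e-45), an endothelial chemotaxis regulator, to 8.04 ± 0.41 for Robo4 (adjusted p = 9.56e-83), a guidance receptor that steadies vessels. For all genes tested the median was -0.20. Against mural cells the 13 markers had a median of 5.94, from 1.33 ± 0.20 for Esam (adjusted p = 0.000393), a junction protein that mural cells also transcribed at 197, 140 and 229 CPM, to 8.26 ± 0.56 for Sox17 (adjusted p = 1.22e-06). Esam and Ecscr (2.04 ± 0.18, adjusted p = 8.43e-06) were the closest to mural levels, and members lay above mural cells in each tumour for both. Esam lost the call with 2 of the 6 markers as the rule (adjusted p = 0.143). Flt1, a VEGF receptor, lost its call against all other kept cells under an outlier-robust estimate of the spread (adjusted p = 0.206). Flt1 in the other cells ranged from 8.43 to 59.0 CPM between tumours.

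**Figure D2:**
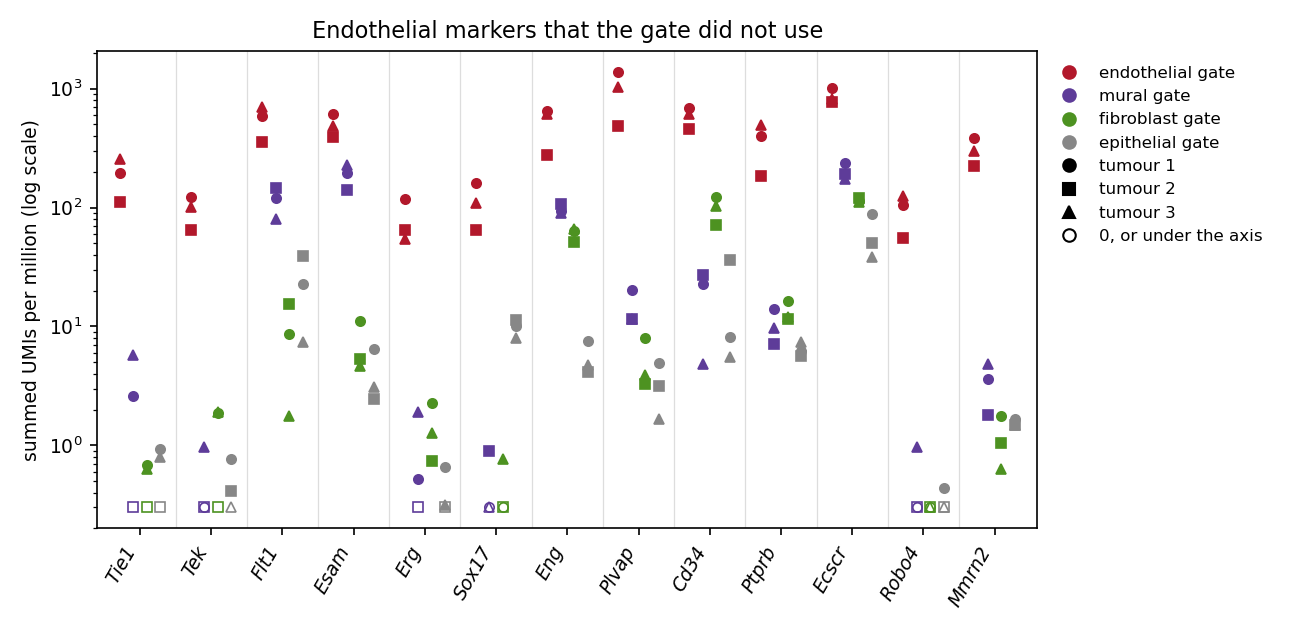
Summed CPM (vertical axis, logarithmic) of 13 endothelial markers that the rule did not use, for the endothelial, mural, fibroblast and epithelial gates (colours) in tumours 1 to 3 (symbols); open symbols lie at 0 or under the axis. For each gene the 3 endothelial points lie above those of the other gates, Plvap for example between 484 and 1368 against at most 20.3.

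Of 13930 genes tested against all other kept cells, 3401 differed (24.4%), 1295 higher in members (9.3%) and 2106 lower (15.1%), at an adjusted p of at most 0.05 in edgeR's quasi-likelihood test. Values did not overlap between groups for 912 of the genes called higher and 1547 of those called lower. Without a test, groups did not overlap for 11.3% of genes with members higher and for 21.0% with members lower. The member sums held 1388300 UMIs together and those of all other kept cells 178867358. A rare gene with 0 UMIs in members therefore also counts as lower without overlap. With at least 10 counts required in each endothelial sum, 323 of 1692 genes were called higher and 192 lower. This filter acts on the members alone and drops genes that are low in them. Fewer lower calls are thus built into it, and it cannot show the part of depth. The part of depth in the larger number of lower genes was not tested. Scaling by library size alone moved the median of all genes from -0.20 to -0.05. The counts lean on tumours 1 and 3: they fell to 436 higher and 671 lower without tumour 1, and to 854 and 1306 without tumour 3. In this fit the spread was taken from a trend shared by all genes, so a gene whose counts come from 1 cell can also pass. Hbb-bs, a haemoglobin chain, was called at 7.15 ± 0.47 (adjusted p = 5.51e-49) although 1127 of its UMIs came from 1 member of tumour 3, and it was not called with the robust estimate (adjusted p = 0.221).

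The 15 genes with the largest rises that were higher in each tumour and had at least 20 UMIs were Tacr1, Myct1, Gpihbp1, Grrp1, Fam167b, Robo4, Samsn1, Sox18, Adgrl4, Gimap4, Ccl21a, Cd93, Mfng, She and Mmrn1. Their differences ranged from 7.73 to 9.11 on the log2 scale, with adjusted p-values of at most 1.39e-40. Tacr1, the receptor of the neuropeptide substance P, led them with 32, 6 and 12 UMIs in members against 8, 3 and 0 UMIs in the much larger sums of all other kept cells. This equals 31.2, 55.8 and 46.9 CPM in members, a narrow range for such a rare transcript. Cd93, a lectin-like receptor of endothelium, stood at 748, 511 and 672 CPM against at most 5.53 in all other kept cells (7.78 ± 0.29, adjusted p = 1.33e-149). Gpihbp1, the capillary protein that carries lipoprotein lipase to the vessel lumen, stood at 367, 428 and 1008 CPM against 4.52, 0.537 and 1.28 (8.23 ± 0.31, adjusted p = 1.25e-153). Members of tumour 3 were highest for Gpihbp1, and its call was lost with the robust estimate (adjusted p = 0.0881), as was that of the chemokine Ccl21a (adjusted p = 0.142). Mfng, a glycosyltransferase that modifies Notch receptors, and Adgrl4, an adhesion receptor of vessels, stayed at or below 0.538 and 1.53 CPM outside the members.

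The 10 genes with the largest falls had 0 UMIs in all members. Ehf, a transcription factor of epithelia, had 3676, 1713 and 3074 UMIs in the other cells of tumours 1, 2 and 3, and its level in members was at least 21.9-fold lower when 3 counts over all members are taken as the limit. For the other 9, Dpt, Tstd1, Sprr2a3, Smim6, Kng2, Spink4, C2, Aldh1l1 and Onecut3, this bound ran from at least 11.6-fold lower for Spink4 and Onecut3 to at least 13.6-fold lower for Dpt, with Tstd1 slightly above that. Dpt encodes a matrix protein of fibroblasts and Onecut3 a transcription factor. In edgeR's quasi-likelihood test the adjusted p of these 10 genes was at most 1.8e-11. DESeq2 did not call 7 of them, and Dpt lost its call without tumour 1 (adjusted p = 0.0509).

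Transcription factors of endothelial identity rose as a group. Of 19 tested, 18 were higher in members than in all other kept cells, beside 9.3% over all genes tested. The other 1 was not called, and the median difference was 3.54. Sox18, which acts in vessel development, stood at 394, 167 and 180 CPM in members against 2.56, 0.432 and 0.325 (7.92 ± 0.32, adjusted p = 4.47e-132). Lmo2 and Tal1, partners in a complex that specifies blood and endothelium, differed by 6.65 ± 0.30 and 6.70 ± 0.65, and the ETS factors Erg and Fli1 by 6.73 ± 0.42 and 5.55 ± 0.34. For each of these 5 genes the lowest member value lay above the highest value of the other cells. Klf2, which responds to blood flow, stood at 1020, 530 and 1219 CPM in members against 279, 264 and 196 (1.70 ± 0.23, adjusted p = 5.16e-12). Klf4 was the 1 factor not called, with a difference of 0.20 and overlapping values. Lyl1 was not tested, with 22 UMIs in members of tumour 1 and 0 in those of tumours 2 and 3.

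Against mural cells 13 of 17 tested factors were higher and 1 lower, beside 9.21% higher and 11.7% lower over all 8100 genes tested (746 and 945 genes, together 20.9%). The factor that was lower was Nr2f2, a regulator of venous fate that stood at 132, 139 and 85.9 CPM in members and at 256, 318 and 380 in mural cells (-1.45 ± 0.25, adjusted p = 0.00119). Epas1, a factor that responds to low oxygen, was not called against mural cells (-0.47 ± 0.24, adjusted p = 0.208), and values overlapped. Without the Epcam and Col1a1 limits it was called lower (-0.59, adjusted p = 0.0353). The 2 comparisons share the member sums. The count of genes called against mural cells fell to 293 higher and 362 lower without tumour 1.

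Growth factor receptors and their ligands split. Of 16 genes of the VEGF, angiopoietin and apelin systems, 10 were higher in members than in all other kept cells and 4 lower. Their median was 2.16, and the shares over all genes tested were 9.3% higher and 15.1% lower. All 7 receptors and co-receptors tested, Flt1, Flt4, Nrp1, Nrp2, Tek, Tie1 and Aplnr, were among the 10. Aplnr, the apelin receptor, stood at 435, 251 and 199 CPM in members, a mean of 295 ± 124 (SD, n = 3), against 7.50, 2.41 and 2.85 in all other kept cells (adjusted p = 3.09e-99, edgeR). Tek, the angiopoietin receptor TIE2, stood at 122, 65.1 and 102 CPM against 1.19, 0.238 and 0.707 (6.92 ± 0.39, adjusted p = 6.6e-69). For both receptors the lowest member value lay far above the other cells. Nrp1, a co-receptor of VEGF, was higher than in all other kept cells (2.01 ± 0.24, adjusted p = 6.45e-15) but not called against mural cells (0.13 ± 0.24, adjusted p = 0.781).

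Among ligands, Vegfa was almost missing from members, with 3, 0 and 1 UMIs, while it stood at 90.6, 58.5 and 39.6 CPM in all other kept cells and at 97.0, 68.3 and 49.4 in epithelial cells. The difference was -4.85 ± 0.53 from all other kept cells (adjusted p = 5.38e-18) and -4.08 ± 0.57 from mural cells (adjusted p = 0.000241). Without the Epcam and Col1a1 limits on members, the difference from all other kept cells was smaller but still called, and that from mural cells was -0.99 and was not called (adjusted p = 0.0907). Angpt1, the activating ligand of TIE2, had 0 UMIs in members, at least 3.37-fold lower than in all other kept cells, a call lost without tumour 1 (adjusted p = 0.293), and was highest in fibroblasts at 21.1, 26.4 and 47.6 CPM. Its context-dependent antagonist Angpt2 went the other way, with 78.1, 27.9 and 78.1 CPM in members against 3.08, 3.34 and 2.98 (4.29 ± 0.37, adjusted p = 2.44e-29). Of its 103 UMIs in members, 33 lay in 8 of the 22 members with at least 2 lymphatic genes, described below. The other members stood at 58.3, 32.9 and 47.9 CPM of Angpt2. Mural cells of tumour 3 reached 69.3 CPM of Angpt2, within the range of all members, and the difference of all members from mural cells was not called (0.93 ± 0.34, adjusted p = 0.0764). It was called under 5 alternatives, among them without tumour 3 (1.41, adjusted p = 0.00407) and with library size only (0.98, adjusted p = 0.047). Vegfc, the ligand of the lymphatic receptor encoded by Flt4, was higher in members (2.09 ± 0.34, adjusted p = 1.07e-08). Apln was seen in members of tumours 1 and 2, at 77.1 and 112 CPM, and had 0 UMIs in those of tumour 3, whose other cells held 0.0956. Pgf, another VEGF family ligand, was not called against all other kept cells and was lower than in mural cells (-2.33 ± 0.33, adjusted p = 0.000295).

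**Figure D3:**
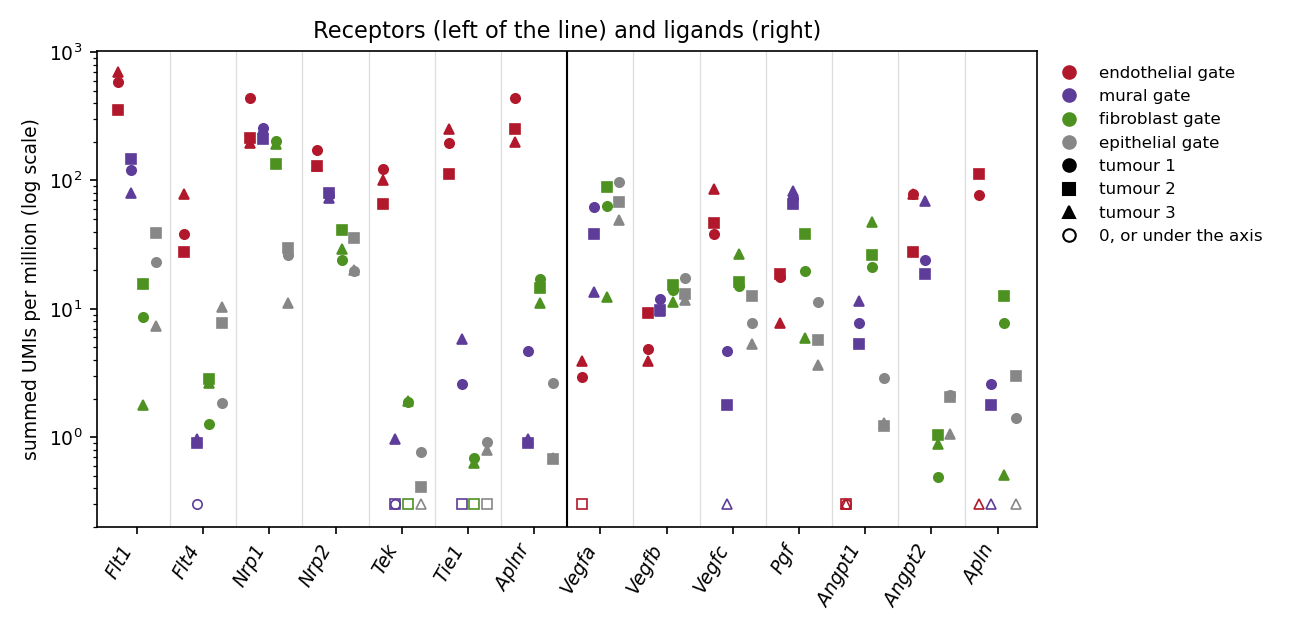
Summed CPM (vertical axis, logarithmic) of 7 receptors (left of the line) and 7 ligands (right) in the endothelial, mural, fibroblast and epithelial gates (colours) of tumours 1 to 3 (symbols); open symbols lie at 0 or under the axis. Endothelial points are highest for Tek, Tie1 and Aplnr and lowest for Vegfa, at 3.91 or less, and Angpt1, at 0.

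Notch and ephrin proteins carry signals between touching cells and set arterial and venous fate. Of 14 tested genes of these families, 10 were higher in members than in all other kept cells, beside 9.3% over all genes tested. The other 4 were not called, and the median was 1.82. The Notch ligand Dll4, made by arterial and tip cells, stood at 58.6, 55.8 and 105 CPM in members against 2.24, 1.89 and 0.994 (5.26 ± 0.39, adjusted p = 1.05e-39), and members of tumour 3 were highest. The receptors Notch1 and Notch4 rose by 2.80 ± 0.30 and 3.91 ± 0.45. Jag1, another Notch ligand, was not called against all other kept cells (-0.22 ± 0.36, adjusted p = 0.741) and was lower than in mural cells (-1.41 ± 0.38, adjusted p = 0.0185), a call lost without tumour 2 (adjusted p = 0.0533). The Notch target Hey1 stood at 57.6, 9.30 and 105 CPM in members against 1.75, 1.18 and 1.03 in all other kept cells (5.32 ± 0.42, adjusted p = 1.14e-34). Hey2 had 0 UMIs in members and 18.8, 15.2 and 53.9 CPM in mural cells, at least 12.4-fold lower in members. Heyl had 1, 1 and 0 UMIs in members and 108, 108 and 41.4 CPM in mural cells, a ratio of summed levels of 0.0158 (95% exact interval 0.00191 to 0.0576, adjusted p = 8.7e-06 in edgeR). Both targets were thus at or near 0 in members. The arterial ephrin Efnb2 and its venous receptor Ephb4 were both higher in members than in mural cells, by 3.57 ± 0.49 and 2.45 ± 0.31.

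In the BMP and TGF-beta pathway 7 of 13 tested genes were higher in members than in all other kept cells and 1 lower (median 1.06). Over all genes tested, 9.3% were higher and 15.1% lower. Eng and Acvrl1, the co-receptor and receptor through which endothelium senses BMP9, rose by 4.46 ± 0.26 and 3.74 ± 0.35. Acvrl1 stood at 82.9, 83.7 and 62.5 CPM in members against 7.03, 3.01 and 4.38, and each tumour's members lay above all the other cells. The signal carrier Smad1 and the target Id1 also rose, by 1.74 ± 0.24 and 1.07 ± 0.24. The TGF-beta receptor Tgfbr1 was lower (-1.36 ± 0.41, adjusted p = 0.00479), with member values that overlapped those of the other cells and a call lost without tumour 1 (adjusted p = 0.645). Id1 lost its call without tumour 3 (adjusted p = 0.38) and with 2 of the 6 markers as the rule (adjusted p = 0.152).

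Of 19 junction and adhesion genes, 14 were higher in members than in all other kept cells and 1 lower (median 2.61). The shares over all genes tested were 9.3% and 15.1%. Against mural cells 14 of 18 were higher, beside 9.21% over all genes tested, and 4 were not called. The selectin genes Selp and Sele, which capture white blood cells on inflamed vessels, rose by 7.22 ± 0.33 and 6.34 ± 0.55. Selp stood at 240, 121 and 121 CPM in members against 1.77, 0.492 and 0.688. Icam2, an adhesion molecule of resting endothelium, varied more, at 242, 130 and 23.4 CPM, and members of tumour 3 were lowest. Vcam1 was not called (-0.08 ± 0.30, adjusted p = 0.903), at 84.9, 93.0 and 3.91 CPM in members against 68.4, 44.9 and 36.1. The 1 gene that was lower was Ocln, occludin of tight junctions, with 3, 0 and 2 UMIs in members (-2.20 ± 0.63, adjusted p = 0.00311, and 0.373 without tumour 1). Mcam, an adhesion molecule of endothelium and pericytes, was higher than in all other kept cells (3.93 ± 0.26, adjusted p = 9.3e-48) and not called against mural cells (-0.34 ± 0.21, adjusted p = 0.309), but was called lower without the Epcam and Col1a1 limits (-0.54, adjusted p = 0.0492).

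Caveolae, the flask-shaped pits of the endothelial membrane, were represented by 8 genes, of which 7 were higher in members in both comparisons. Over all genes tested, 9.3% were higher than in all other kept cells and 9.21% than in mural cells. Cav1, the main coat protein, stood at 399, 298 and 148 CPM in members against 33.3, 36.9 and 20.7 in all other kept cells (3.01 ± 0.25, adjusted p = 3e-31). Sdpr, listed today as Cavin2, differed by 1.93 ± 0.25 from all other kept cells and 3.87 ± 0.26 from mural cells. Ptrf, listed today as Cavin1, was the 1 gene not called, at 0.41 ± 0.25 against all other kept cells (adjusted p = 0.26). Members of tumour 3 were lowest for all 3 of these genes.

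Genes of clotting and vascular tone were mixed: 9 of 15 were higher and 3 lower than in all other kept cells (median 1.62). Against mural cells 3 of 11 were higher and 3 lower. The shares over all genes tested were 9.3% and 15.1%, and against mural cells 9.21% and 11.7%. Vwf, the platelet-binding protein stored in endothelial granules, stood at 412, 158 and 437 CPM in members against 2.35, 0.432 and 1.76 (7.70 ± 0.31, adjusted p = 1.53e-132). Nos3, the endothelial nitric oxide synthase, stood at 69.3, 9.30 and 31.2 CPM against 0.790, 0.775 and 0.535 (5.77 ± 0.52, adjusted p = 2.52e-26). Gucy1a3, a subunit of the enzyme that senses nitric oxide, had 1, 1 and 0 UMIs in members and 145, 137 and 270 CPM in mural cells, a ratio of summed levels of 0.00826 (95% exact interval 0.000998 to 0.0299, adjusted p = 2.24e-06 in edgeR). Nos3 was not tested against mural cells. Plat, tissue plasminogen activator, was lower than in all other kept cells (-1.05 ± 0.26, adjusted p = 0.000391, 0.36 without tumour 1 and 0.119 without the Epcam and Col1a1 limits) and than in mural cells (-2.78 ± 0.33, adjusted p = 8.35e-05).

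Lipid handling was led by Gpihbp1, given above, while Lpl, the lipase that GPIHBP1 carries, was low in members with 8, 0 and 4 UMIs. Lpl stood at 81.4, 49.4 and 96.6 CPM in all other kept cells (-3.34 ± 0.40, adjusted p = 4.65e-15) and at 311, 313 and 196 in fibroblasts. Of 12 tested genes of lipid uptake and scavenging, 7 were higher and 1 lower (median 3.21), beside 9.3% and 15.1% over all genes tested. The scavenger receptors Stab1 and Scarb1 rose by 4.81 ± 0.34 and 3.51 ± 0.28, and the water channel Aqp1 by 4.10 ± 0.26. Fabp4, a fatty acid carrier of capillaries, stood at 3637, 325 and 969 CPM in members, a spread of 1756 (SD, n = 3) around a mean of 1644. Mural cells held 782, 742 and 1402, within that range, and the difference from mural cells was not called (0.14 ± 0.52, adjusted p = 0.903).

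Basement membrane and matrix genes were mostly higher in members than in the tumour as a whole, and differed from mural cells in both directions. Of 15 genes, 12 were higher and 2 lower than in all other kept cells (median 1.72), beside 9.3% and 15.1% over all genes tested. Against mural cells 3 were higher and 5 lower (median -0.10), beside 9.21% and 11.7% over all genes tested. Col4a1, a chain of the collagen IV network, stood at 1891, 1320 and 2386 CPM in members, at 1739, 1939 and 2701 in mural cells and at 245, 156 and 313 in all other kept cells. Members and mural cells overlapped, and their difference was -0.28 ± 0.19 (adjusted p = 0.38). Without the Epcam and Col1a1 limits it was called lower at -0.49 (adjusted p = 0.02). Hspg2, which encodes perlecan, and Nid2, which encodes nidogen 2, were higher in members also against mural cells, by 1.56 ± 0.22 and 1.33 ± 0.24. Nid2 lost that call without tumour 1 (adjusted p = 0.0822), and with 2 of the 6 markers as the rule neither Hspg2 nor Nid2 was called (adjusted p = 0.0819 and 0.0771). Sparcl1 was lower than in mural cells (-1.58 ± 0.19, adjusted p = 7.39e-05). Mgp and Fn1, matrix genes of mural cells and fibroblasts, were lower in both comparisons, with differences of -1.96 ± 0.23 and -2.30 ± 0.25 for Fn1.

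Of 18 secreted growth factors and chemokines, 7 were higher and 3 lower than in all other kept cells (median 0.54). The shares over all genes tested were 9.3% and 15.1%. Pdgfb, the signal that recruits pericytes, stood at 42.9, 65.1 and 15.6 CPM in members and at 3.13, 2.68 and 0.963 in mural cells (3.91 ± 0.48, adjusted p = 0.000107). Igfbp7, an insulin-like growth factor binding protein of vessels, stood at 12076, 6891 and 14982 CPM in members against 3024, 1763 and 4288 (1.74 ± 0.22, adjusted p = 3.35e-13), and overlapped mural cells. The Igfbp7 call was lost without tumour 1 (adjusted p = 0.186) and without tumour 3 (adjusted p = 0.0714). Cxcl12, a chemokine that keeps leukocytes near vessels, was called higher (1.77 ± 0.28, adjusted p = 3.7e-09) but stood at 383, 18.6 and 109 CPM, with tumour 2 below the 40.2 of its other cells. Its adjusted p was 0.692 without tumour 1 and 0.106 with the robust estimate. Ccl2 rested on few cells: 51 of its 56 UMIs in tumour 2 lay in 1 member.

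Among 19 interferon response genes 8 were higher and 1 lower than in all other kept cells (median 0.67), beside 9.3% and 15.1% over all genes tested. Against mural cells 3 of 10 were higher, beside 9.21%. Ifi44 had 17, 4 and 1 UMIs in members and rose by 3.70 ± 0.61 (adjusted p = 2.21e-08), and Iigp1, an immunity-related GTPase, by 2.71 ± 0.42. Without tumour 1 both lost the call (adjusted p = 0.108 and 0.364). Ly6a, known as Sca-1, stood at 751, 549 and 273 CPM in members and at 45.9, 85.0 and 11.6 in mural cells (3.58 ± 0.32, adjusted p = 8.59e-06). MHC class I and class II genes moved in opposite directions against all other kept cells. The class I chain H2-D1 stood at 1226, 670 and 832 CPM in members against 272, 141 and 306 (1.77 ± 0.23, adjusted p = 1.98e-13), and H2-K1 and B2m rose by 1.01 ± 0.24 and 1.02 ± 0.22. Class I genes have near-identical copies, so their counts are uncertain, and without tumour 1 H2-K1 and B2m were not called (adjusted p = 0.299 and 0.63), nor was B2m without tumour 3 (adjusted p = 0.15). Cd74, the invariant chain of class II, had 10, 0 and 0 UMIs in members and stood at 165, 27.3 and 58.7 CPM in all other kept cells (-4.39 ± 0.45, adjusted p = 7.99e-21). H2-Aa, H2-Ab1 and H2-Eb1 were also lower, with 2, 7 and 1 UMIs in members, all in tumour 1. The ratio of summed levels was 0.0993 for H2-Aa (95% exact interval 0.012 to 0.359) and 0.0423 for H2-Eb1 (0.00107 to 0.236). Without tumour 1 the 3 genes were not called, with adjusted p-values of 0.213, 0.0533 and 0.195. They were not tested against mural cells. In the authors' deposited table of cell clusters, Cd74 and these 3 genes had a log2 fold change above 1 in cluster 9 alone. Cd274, which encodes PD-L1, had 2, 0 and 1 UMIs and was not called (adjusted p = 0.326), at a ratio of 4.11 (0.833 to 12.4).

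Cell cycle and stress genes are read beside the 9.3% of all genes tested that were higher and the 15.1% that were lower. Of 16 S, G2 and M phase genes, 1 was higher than in all other kept cells, Tyms (1.01 ± 0.28, adjusted p = 0.00182). Against mural cells edgeR's quasi-likelihood test called 0 of 16 and DESeq2 0, with 1 gene at an unadjusted p under 0.05. The Tyms call was lost without tumour 1 (adjusted p = 0.116) and without tumour 3 (adjusted p = 0.112). Mki67, a marker of cycling cells, had 23, 2 and 1 UMIs in 15 of 270 members, at 22.4, 18.6 and 3.91 CPM, close in value to the 15.5, 15.6 and 3.90 of all other kept cells. Of 17 immediate early and heat shock genes, which respond to tissue dissociation, 2 were lower, Egr1 (-1.05 ± 0.25) and Hsp90aa1 (-0.80 ± 0.22), and 15 were not called. Without tumour 3 neither was called (adjusted p = 0.108 and 0.285), nor was Hsp90aa1 without tumour 1 (adjusted p = 0.173). Genes of hypoxia and glycolysis were mostly lower than in all other kept cells: 8 of 14 were lower and 2 higher (median -0.72). Against mural cells 3 of 13 were lower, 2 were higher and 8 were not called (median -0.35). Over all genes tested against mural cells, 11.7% were lower and 9.21% higher. Hk2, a hexokinase, had 8, 1 and 0 UMIs in members and stood at 135, 83.1 and 78.0 CPM in all other kept cells (-4.36 ± 0.43, adjusted p = 1.6e-22), and the hypoxia targets Bnip3 and Car9 differed by -3.28 ± 0.41 and -2.98 ± 0.55. Adm, adrenomedullin, which acts on endothelium and is itself a hypoxia target, went the other way at 47.8, 74.4 and 58.6 CPM against 23.1, 26.3 and 10.5 (1.41 ± 0.33, adjusted p = 0.000153, and 0.115 without tumour 3). It was uneven among members: 32 of its 72 UMIs lay in 4 of the 22 members with at least 2 lymphatic genes, described below. Of these, 11 lay in 1 cell of tumour 3. The other members stood at 28.6, 132 and 17.4 CPM of Adm.

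**Figure D4:**
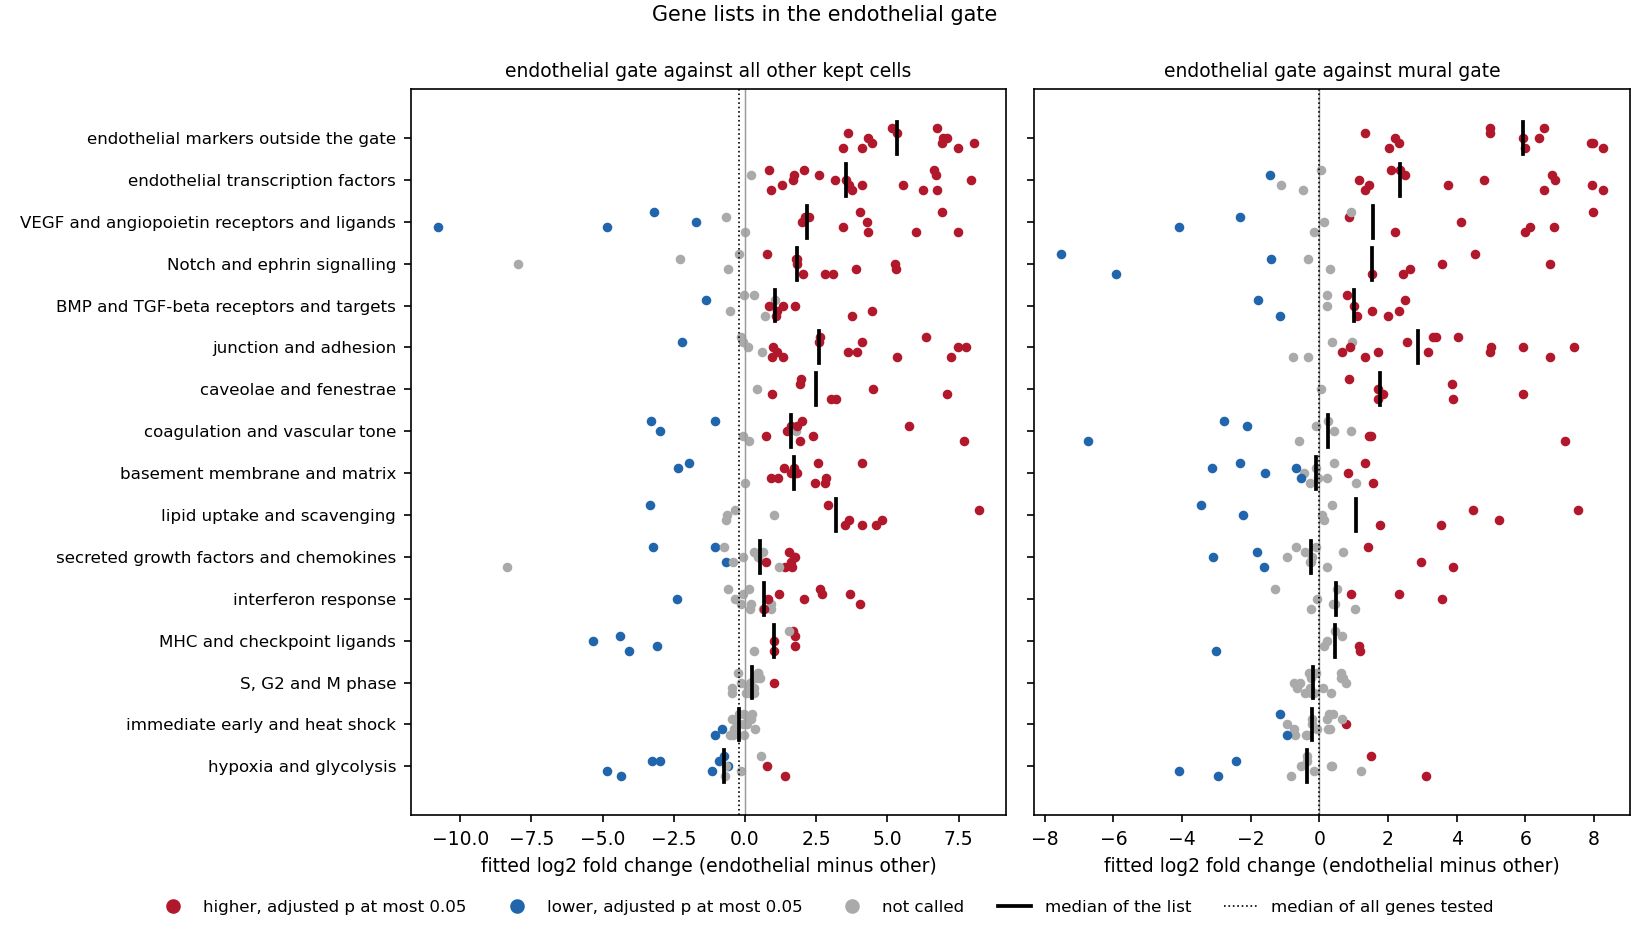
Fitted log2 fold change of each tested gene (points, horizontal axis) in 16 gene lists (vertical axis) for members against all other kept cells (left) and against mural cells (right), coloured by call; thick bars are list medians and the dotted line is the median of all genes tested. Endothelial markers and transcription factors lie to the right in both panels, while the median of basement membrane genes is 1.72 in the left panel and -0.10 in the right; points of genes with 0 UMIs in a group depend on the fit's prior count.

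Against mural cells, the 12 genes with the largest rises were Mfng, Ccl21a, Madcam1, Nts, Csf2rb2, Sox17, Tacr1, Samsn1, Tek, Wscd1, Myct1 and Sox18, with fitted differences from 7.94 to 9.40 and adjusted p-values of at most 0.000114. For Mfng, Madcam1, Csf2rb2, Tacr1, Samsn1 and Wscd1, which had 0 UMIs in mural cells, the fitted size depends on the prior count and the bound is given instead. Mfng was at least 127-fold higher. Madcam1, an adhesion molecule that guides lymphocytes to the gut, had 132, 10 and 5 UMIs in members and 0 in mural cells, at least 144-fold higher. Nts, which encodes neurotensin, had 297, 27 and 23 UMIs in members and 0, 1 and 0 in mural cells. Csf2rb2, a cytokine receptor subunit, had 82, 3 and 8 UMIs in members and was at least 91.0-fold higher. The 8 genes with the largest falls, Cox4i2, Pde3a, Cnn1, Mir143hg, Foxs1, Pde1a, 1810011H11Rik and Tusc5, had 0 UMIs in members. Cox4i2, a cytochrome oxidase subunit, stood at 281, 282 and 230 CPM in mural cells and was at least 124-fold lower in members, and Cnn1, calponin of smooth muscle, at least 35.8-fold lower. Of the members, 2 had at least 3 of the 6 mural genes.

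Vessel types were described by short marker lists, with a member assigned to a type when at least 2 of the list's genes had a UMI. Venous genes were met by 213 of the 270 members, capillary genes by 197, arterial genes by 90, tip cell genes by 65 and lymphatic genes by 22. The lists are not exclusive in single cells: 57 members met 1 list, 122 met 2, 63 met 3, 23 met 4, 1 met all 5 and 4 met none, and 149 members met both the venous and the capillary list. After thinning to 2000 UMIs, venous genes were met by 58.2%, 68.8% and 58.4% of the members of tumours 1 to 3, against 4.41%, 1.52% and 3.21% of all other kept cells. Arterial genes were met by 20.9%, 6.25% and 27.3% of members after thinning, where 6.25% is 1 cell of tumour 2, against 0.249%, 0.132% and 0.163% of all other kept cells. Without thinning the arterial shares were 33.9%, 18.8% and 35.1%.

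Blood vessel genes differed in how evenly the tumours shared them. Lrg1, a venule gene that modulates TGF-beta signals, stood at 1796, 1107 and 1304 CPM in members, and Rgcc, a capillary gene, at 316, 288 and 371, where the counting intervals of the 3 tumours overlap. The tip cell gene Esm1, endocan, stood at 69.3, 167 and 121 CPM in members, but in all other kept cells at 0.656, 22.7 and 0.554, and fibroblasts of tumour 2 held 47.4. Gja4, a connexin of arteries, had 370, 0 and 70 UMIs and was not called against mural cells (-0.41 ± 0.48, adjusted p = 0.635), which held 213, 187 and 417 CPM. Gja5, the connexin of larger arteries, was seen with 26 UMIs in 8 members of tumour 1 and in none of the other tumours. Ackr1, which marks venules, stood at 266 CPM in members of tumour 1 (95% exact Poisson interval 236 to 300), 93.0 in tumour 2 (44.6 to 171) and 19.5 in tumour 3 (6.34 to 45.6), with no overlap of the intervals between tumour 1 and the others.

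**Figure D5:**
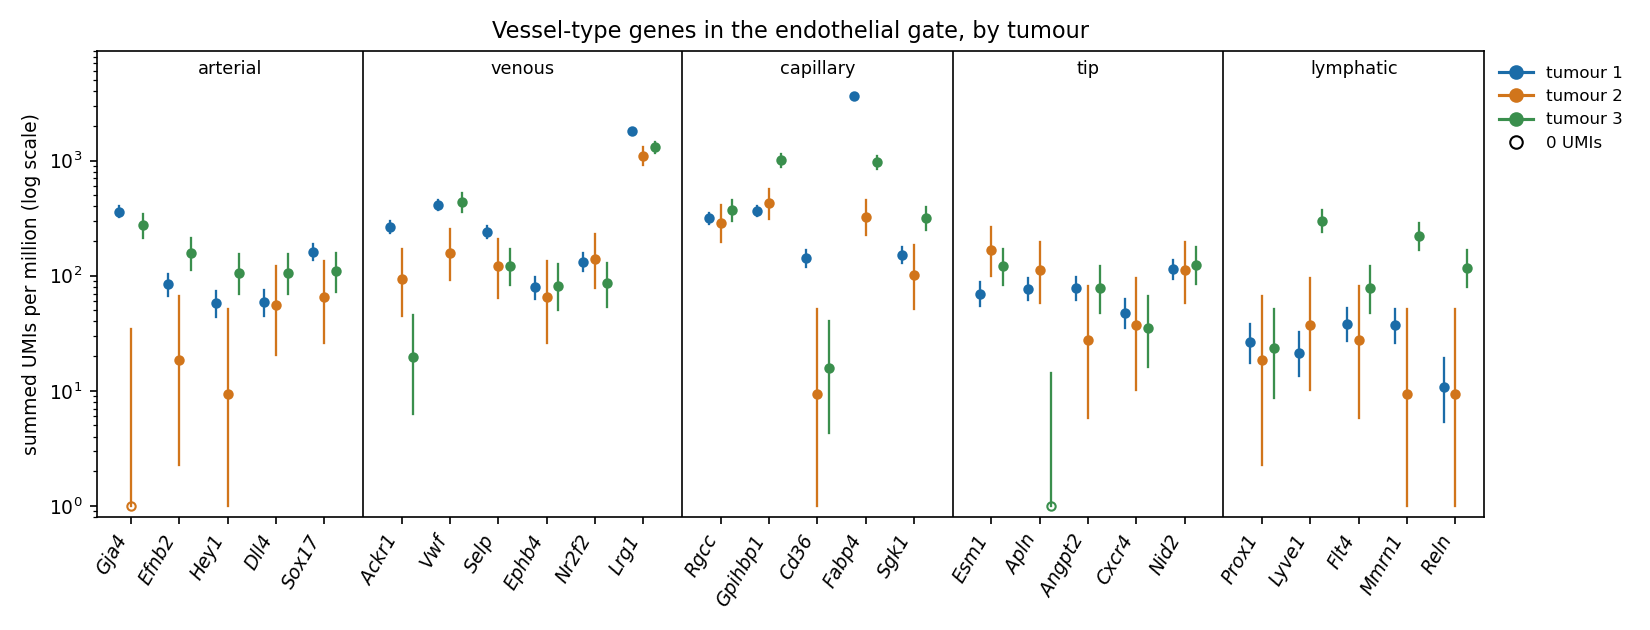
Summed CPM (vertical axis, logarithmic) in members for genes of 5 vessel-type lists, with 1 point per tumour, exact Poisson intervals as bars and open points at the axis for 0 UMIs. Rgcc is level across tumours within its intervals, Ackr1 and Fabp4 are highest in tumour 1, and Lyve1, Mmrn1 and Reln are highest in tumour 3.

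The 22 members that met the lymphatic list, 11 in tumour 1, 3 in tumour 2 and 8 in tumour 3, differed from the other 248 in genes that the list does not hold. They were chosen by Prox1, Lyve1, Pdpn, Flt4, Mmrn1 and Reln, so those are no finding. All 403 Ccl21a UMIs of the members lay in these cells, in 12 of the 22, and 0 lay in the other 248. Ccl21a encodes a chemokine of lymphatic vessels that draws dendritic cells and T cells, and near-identical copies of the gene exist, so the assignment among copies is uncertain. Of the Ccl21a UMIs, 156 came from 1 member, and outside the members 507 of the 833 Ccl21a UMIs in tumour 3 came from 1 cell. Some genes of blood endothelium, named here after their values were seen, were missing from them: Ackr1, Madcam1, Sele, Dll4, Esm1 and Notch4 had 0 UMIs in the 22 cells, which held 120313 UMIs in total. Cd93 was seen in 5 of the 22 cells and 228 of the 248, Flt1 in 4 and 196, and Vwf in 3 and 167. Plvap was seen in 16 of the 22 and 232 of the 248. Other genes of the venous and capillary lists went both ways. Selp was seen in 1 of 22 against 74 of 248, Rgcc in 4 against 133, Cd36 in 1 against 45 and Gpihbp1 in 8 against 124. Seen as often as in the rest or more often were Lrg1 in 20 of 22 against 219 of 248, Fabp4 in 16 against 178, Sgk1 in 13 against 101, Nr2f2 in 11 against 90 and Ephb4 in 9 against 77. By level, Lrg1 stood at 1058, 278 and 1181 CPM in the 22 cells against 1831, 1745 and 1319 in the other members. Fabp4 stood at 1820, 64.1 and 1943 CPM against 3725, 527 and 857, lower in tumours 1 and 2 and higher in tumour 3. Sgk1 and Nr2f2 were slightly lower in tumour 1 and higher in tumours 2 and 3. Of the 22 cells, 16 also met the capillary list and 15 the venous list. Nts was seen in 13 of the 22 cells, with 218 UMIs, and in 13 of the 248, with 129. The 3 cells of tumour 2 held 46802 of its 107537 UMIs with a median of 11089 per cell, so they weigh heavily in that tumour's sum. No test was made, since the split was chosen on the same cells.

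Markers of other cell types were also summed in members, and their levels differed between lists and tumours. Of 8 haematopoietic genes, 5 had 0 UMIs, Ptprc, Lyz2, C1qa, Cd79a and S100a8, which allows a level of up to 2.16 CPM over all members, and the list summed to 3.90, 0 and 3.91 CPM. Mural genes summed to 69.3, 18.6 and 172 CPM in members, with Cspg4 at 0 UMIs, which is 1.35%, 0.334% and 2.42% of the level in mural cells. Fibroblast genes other than Col1a1 summed to 139, 632 and 242, with Dpt at 0, and reached 14.7% of the fibroblast level in tumour 2 against 1.65% and 2.80% in tumours 1 and 3. In tumour 2 all of these UMIs were Dcn, with 43 in 1 member that met the lymphatic list and 25 in 4 other members. Epithelial genes other than Epcam summed to 410, 167 and 281, or 4.68%, 2.60% and 4.02% of the epithelial level. Acinar genes stood at 42.0%, 9.70% and 2.57% of the level in all other kept cells. Platelet genes were not lower as a list, at 136%, 131% and 76.8% of that level, with Ppbp at 0 UMIs and Itga2b, an integrin of platelets, called higher (2.11 ± 0.63, adjusted p = 0.00494). Erythroid genes summed to 0.976, 0 and 6038 CPM, the last from tumour 3, where 1 member held nearly all of them. The part of these transcripts, and of the lower depth of members, in the results above was not tested.

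Between tumours no test was possible, because the tumours form 1 group, and the values of members are a description. The 6 genes with at least 20 UMIs that were highest in tumour 1 over tumour 3 were Fabp5, Prss2, Ctrb1, Clps, Stmn1 and Ackr1. Prss2, Ctrb1 and Clps are digestive enzymes and cofactors of acinar cells, and the acinar list summed to 1100, 27.9 and 62.5 CPM in members against 2616, 288 and 2436 in all other kept cells. Fabp5, a fatty acid carrier, stood at 443, 37.2 and 19.5 CPM in members and at 327, 141 and 66.0 in all other kept cells. Stmn1, a microtubule regulator of dividing cells, stood at 275, 279 and 19.5 in members, against 249, 235 and 100 in all other kept cells. The 6 genes highest in tumour 3 over tumour 1 were Hbb-bs, Xist, Hba-a1, Hbb-bt, Hba-a2 and Crisp1. Of the haemoglobin genes, Hbb-bs and Hba-a1 had 1127 of 1128 and 415 of 416 UMIs of tumour 3 in 1 member. Xist, the transcript of the inactive X chromosome of females, had 0, 0 and 421 UMIs in members, and stood at 0.706, 1.06 and 1290 CPM in all other kept cells. Members thus had Xist in the tumour whose other cells had it.

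The authors' deposited table lists log2 fold changes of genes for 19 clusters of the same cells. In the authors' deposited table all 6 genes of the rule, all 13 further markers and all 15 genes named above as rising most had their highest log2 fold change in cluster 18. The table gives no map from cells to clusters in the files used here, so how many of the 270 members lie in that cluster is not known.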

How the data were processed

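The deposited matrix holds UMI counts for 28692 genes, per the file headers and values, and the submitters' processing notes name Cell Ranger 2.1.1 and Seurat 3.0. The build, annotation and mapping settings were not given in the sources used here; gene symbols are those of the matrix. The barcode suffix gives the tumour, per the labels. The authors' deposited table of cluster markers gives log2 fold changes and adjusted p-values for 19 clusters, per the file headers, and was used for description only.

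UMIs were summed per tumour and kind of cell and tested with edgeR 4.0.16 (R 4.3.3; TMM, filterByExpr, quasi-likelihood, Benjamini-Hochberg, threshold 0.05). Tumour entered as a block, because each pair of sums shares its tumour. Genes that define a gate were left out of the tests. Errors of differences are the size divided by the square root of F. The fit against all other kept cells estimated no spread specific to each gene. On simulated counts for that comparison (13930 genes), 37 of 50 genes raised 4-fold and 18 lowered 4-fold were called.

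The rule chose cells by their expression, so gate genes are described without a test, and members and gene lists were chosen with earlier results of these data known. Genes named as changing most were the 15 highest and 10 lowest (12 and 8 against mural cells) with at least 20 UMIs and the same direction in each tumour. A level of 0 was bounded by 3 counts over the group. For shares of cells, each cell was thinned to 2000 UMIs, which left out 0 cells. Alternatives included DESeq2 1.42.0, other filters, scalings and rules for cells, and leaving out each tumour.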

Additional observations from a re-analysis of the deposited data

How the results depend on the processing

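Leaving out 1 tumour at a time gave between 436 and 1253 genes higher and between 671 and 1922 lower than all other kept cells, and between 293 and 775 higher and 362 and 1008 lower than mural cells. The lowest counts came without tumour 1. Requiring at least 10 counts in each endothelial sum, which drops genes low in members, left 1692 genes. It gave 323 higher and 192 lower against all other kept cells and 264 and 223 against mural cells. DESeq2 gave 850 and 1095, and 491 and 621. With 2 of the 6 markers as the rule, 1352 genes were lower than all other kept cells and 443 higher than mural cells. No filter on low counts gave 1422 genes lower than mural cells. Without the replicate block for tumour, 629 genes were higher and 728 lower than all other kept cells, and 612 were lower than mural cells. Except for these fewer genes or samples, the cause was not tested. The rule on tumours with at least 15 cells changed nothing, as each tumour passed it.

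Over the genes named with a test and all alternatives, 2195 values kept direction and call, 66 lost the call, 8 gained it and 11 changed sign. Klf4 changed to -0.056 with 2 markers and ranged from -0.10 to 0.49 with 1 tumour left out. Vcam1 changed to 0.076 with library size only and 0.11 without the replicate block and ranged from -0.65 to 0.34 with 1 tumour left out. Against mural cells, Nrp1 changed to -0.28 with 2 markers and ranged from -0.33 to 0.41 with 1 tumour left out, Fabp4 changed to -0.40 and ranged from -0.96 to 0.83, and Gja4 ranged from -1.42 to 0.081. The genes that changed sign had not been called. Without the replicate block, 15 of 89 named genes lost their call against all other kept cells, among them Apln, Id1, Tyms, Egr1 and Adm. The robust estimate of the spread, the rule without the Epcam and Col1a1 limits and leaving out members over 10000 UMIs were chosen after seeing the data.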

Other observations

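Most haemoglobin UMIs of the members lay in 1 cell of tumour 3, which held 1127 of 1129 Hbb-bs, 415 of 416 Hba-a1, 141 Hbb-bt and 118 Hba-a2 UMIs. Crisp1 had 30 UMIs in members, all in 1 cell of tumour 3, where all other kept cells stood at 10.9 CPM. The acinar transcripts of tumour 1 were also uneven, with 414 Ctrb1 UMIs, 115 Prss2 UMIs and 111 Clps UMIs each the largest value held by 1 member. Nts reached 78 UMIs in 1 member.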
